A study of Rattus with 6 samples.

Results

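Slc28a2 and Hprt1 are 2 genes of purine handling whose messenger RNAs have a probe on a rat circular RNA microarray, and their signals in blood plasma RNA are described here array by array. The probes were taken by name, A_44_P1024721 for Slc28a2 (transcript NM_031664) and CUST_10_PI421900130 for Hprt1 (transcript NM_012583.2), out of 62 probes for linear transcripts and 14207 named probes in all. Both genes were chosen by their scaled signals on these same 6 arrays, which read higher at 2 h than at 0 h in an earlier look, so the difference between the groups is given as a description, without a test.

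The study concerns myocardial ischaemia-reperfusion injury (MIRI), in which a coronary artery of the heart is closed and then reopened. Plasma came from 6 adult male SD (Sprague-Dawley) rats, with 3 samples titled plasma 0h MIRI and 3 titled plasma 2h MIRI, 1 array each, called 0 h and 2 h here. Per the labels' protocols, under anaesthesia and ventilation the left anterior descending coronary artery was closed for 40 min and reopened, blood was collected after 2 h of reperfusion, and in sham-operated rats the thread was passed but not tied. An injured and a sham-operated group are the only ones named, but no label ties the sham operation to the 0 h samples. The protocol names the right atrium, after a saline rinse, as the site of blood collection in reperfused rats, and a sentence after the sham rats names the right ventricle, so the collection site may differ as well. All 6 samples were digested with RNase R, an exonuclease that removes linear RNA, before labelling with Cy3 by random priming. The signals of Slc28a2 and Hprt1 are therefore those left in RNA from which linear molecules were to be removed, and whether they come from linear remnants or from circular RNA that holds the probed stretch was not tested.

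Purines are the building blocks of ATP, GTP and nucleic acids, and cells obtain them by making them anew or by taking up and reusing preformed ones. Slc28a2 encodes CNT2, a concentrative transporter that uses the sodium gradient to bring purine nucleosides such as adenosine and inosine, and also uridine, into the cell. Hprt1 encodes hypoxanthine-guanine phosphoribosyltransferase, which joins hypoxanthine or guanine to a ribose phosphate donor to give IMP or GMP. In a heart without blood flow ATP is broken down to adenosine, inosine and hypoxanthine, which leave the muscle cells. Hprt1 is also widely used as a reference gene in measurements of RNA. Plasma holds RNA shed by many tissues, and a change in the number of shedding cells cannot be told apart from a change in the RNA per cell.

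Both genes read higher at 2 h than at 0 h after each array was scaled to the 75th percentile of its non-control probes. Slc28a2 read 1.58-fold higher, with a log2 difference of 0.66 ± 0.20 (SE from limma over all tested probes, n = 3 per group). Hprt1 read 1.26-fold higher, with a log2 difference of 0.34 ± 0.12 (SE, n = 3 per group). After this scaling the 0 h and 2 h arrays did not overlap for either gene, but without scaling they overlapped for both. After scaling, 24.4% of the 41 linear-transcript probes tested and 11.5% of 11635 circRNA probes were likewise higher at 2 h without overlap. For Slc28a2 most of the difference lay in 2 h replicates 2 and 3.

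Each gene was printed in 10 spots on every array, which gives the precision of a single array. For Slc28a2 the geometric mean of the background-subtracted signal was 12.2, 10.3 and 13.0 scanner units on 0 h replicates 1, 2 and 3. At 2 h it was 12.4, 28.4 and 19.1 units on replicates 1, 2 and 3. In these unscaled units 2 h replicate 1 lay among the 0 h arrays, while 2 h replicates 2 and 3 were above every 0 h array. The spots of 2 h replicate 2 read 25.1 to 31.8 units and those of 2 h replicate 3 read 16.6 to 22.0, whereas the spots of the 3 0 h arrays spanned 8.47 to 16.7. The lowest spot of 2 h replicate 2 was thus above all 30 spots of the 0 h arrays. On 2 h replicate 1 the spots read 11.4 to 13.7 units, inside the range of the 0 h spots.

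For Hprt1 the geometric mean signal was 8.50, 7.70 and 7.53 units on 0 h replicates 1, 2 and 3, and 7.86, 12.7 and 10.6 units on 2 h replicates 1, 2 and 3. As for Slc28a2, 2 h replicate 1 lay among the 0 h arrays before scaling and the other 2 h arrays lay above them. Single spots read 5.04 to 10.7 units at 0 h, 6.38 to 10.5 on 2 h replicate 1, 11.1 to 14.8 on 2 h replicate 2 and 9.12 to 13.4 on 2 h replicate 3. The scanner software called 1 of the 60 Hprt1 spots an outlier, at 9.80 units on 2 h replicate 2, and it was left out, so that 9 spots stand for that array. All other Hprt1 spots and all 60 Slc28a2 spots were used, each of them well above background by the software's flag, and 0 were saturated.

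**Figure D1:**
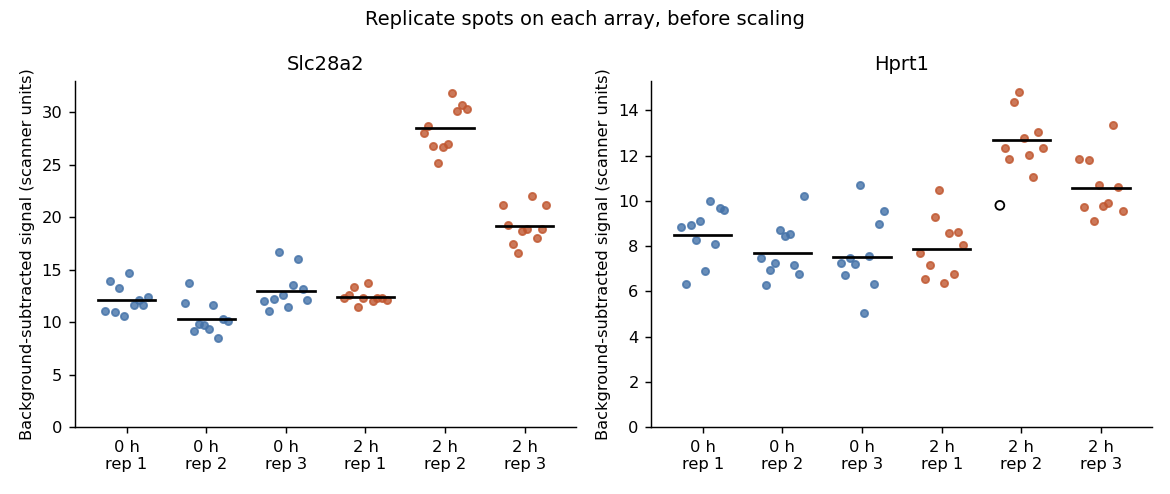
Background-subtracted signal of each replicate spot in scanner units on a linear axis from 0, for Slc28a2 and Hprt1 on the 6 arrays. Points are spots, black lines are geometric means and the open circle is the spot called an outlier; 2 h replicate 1 (means 12.4 and 7.86) lies among the 0 h arrays, and 2 h replicate 2 (28.4 and 12.7) is the highest for both genes.

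Scaling set 2 h replicate 1 apart from the 0 h arrays, because it was the dimmest of the 6. The 75th percentile of its probes was 56.2 units, against 65.4, 59.7 and 66.3 units on 0 h replicates 1, 2 and 3, and 74.7 and 65.1 units on 2 h replicates 2 and 3. The signal of Slc28a2 came to 18.6%, 17.3% and 19.6% of that percentile on 0 h replicates 1, 2 and 3, and to 22.1%, 38.1% and 29.4% on 2 h replicates 1, 2 and 3. On the log2 scale its scaled level was -2.44 ± 0.09 over the 0 h arrays and -1.78 ± 0.39 over the 2 h arrays (SD, n = 3 each), and the lowest 2 h array was 0.17 above the highest 0 h array. The 2 h arrays therefore spread much more than the 0 h arrays.

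For Hprt1 the signal was 13.0%, 12.9% and 11.4% of the percentile on 0 h replicates 1, 2 and 3, and 14.0%, 17.0% and 16.2% on 2 h replicates 1, 2 and 3. Its scaled log2 level was -3.01 ± 0.11 over the 0 h arrays and -2.67 ± 0.15 over the 2 h arrays (SD, n = 3 each), with a gap of 0.10 between the lowest 2 h and the highest 0 h array. Without any scaling the mean differences were as large, 0.68 for Slc28a2 and 0.37 for Hprt1 on the log2 scale, but the groups overlapped for both genes. When arrays were scaled to the median linear-transcript probe (added as a setting once the values were known), the log2 difference was 0.47 for Slc28a2 and 0.15 for Hprt1, and the groups overlapped for Hprt1.

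**Figure D2:**
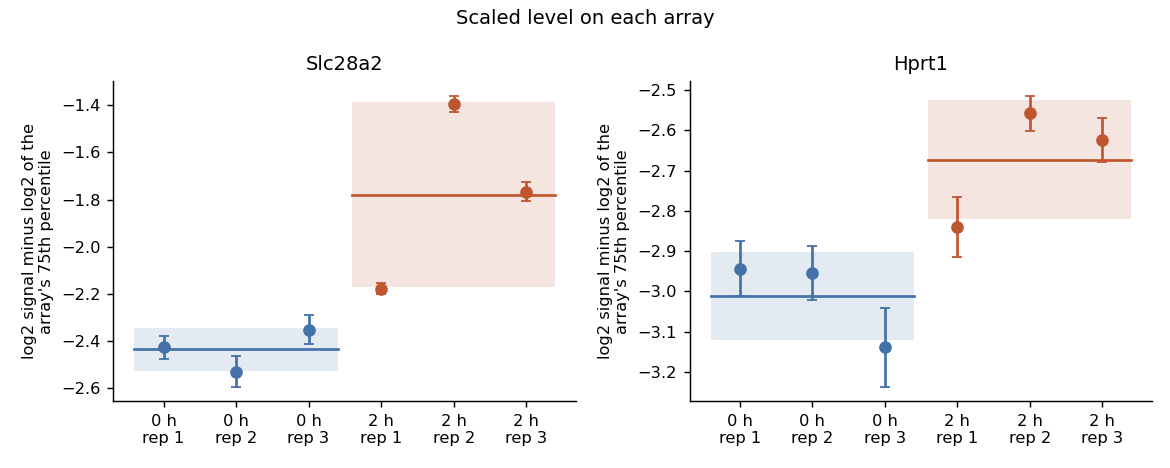
Scaled level of Slc28a2 and Hprt1 on each array, as log2 signal minus log2 of the array's 75th percentile; points are means over spots with the SE over spots, and lines and bands are group means ± SD of 3 arrays. The 0 h arrays of Slc28a2 lie between -2.53 and -2.35 and its 2 h arrays between -2.18 and -1.39, while Hprt1 spans -3.14 to -2.94 and -2.84 to -2.56.

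The spread between arrays, which holds the differences between rats as well as between hybridisations, was set beside the spread between spots, which is technical only. The SE of an array's mean over its spots averaged 0.03 on the log2 scale for Slc28a2 at 2 h, where the SD between arrays was 0.39, or 11.6 times as large. At 0 h the SE over spots was 0.06 and the SD between arrays 0.09, a ratio of 1.51. For Hprt1 the SD between arrays was 1.38 times the SE over spots at 0 h and 2.51 times at 2 h. Compared with the 41 linear-transcript probes tested, the pooled SD within groups was 0.28 for Slc28a2, above 32 of them, and 0.13 for Hprt1, above 18, around a median of 0.15.

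The spots of each gene were spread over the array. At each of the 10 places where Slc28a2 was printed, in rows 37 to 176 of the grid, the mean scaled log2 signal was higher at 2 h, by 0.35 to 0.76. For Hprt1, printed in rows 24 to 189, it was higher at 9 of 10 places, with differences of -0.02 to 0.49. Spots of one array share its RNA and labelling, and their values are those that chose the genes, so these counts are a description and lend the difference no support.

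The local background was compared between the groups by 2 exact permutation tests. The choice of genes did not use it directly, but the signal that chose them has the background subtracted, so the 2 measures are not independent. Around the Slc28a2 spots it averaged 16.6 ± 0.35 units over the 0 h arrays and 18.1 ± 1.15 units over the 2 h arrays (SD, n = 3 each; exact permutation p = 0.2, two-sided, Benjamini-Hochberg adjusted p = 0.4). Around the Hprt1 spots it was 17.1 ± 0.26 and 17.3 ± 0.98 units (SD, n = 3 each; exact permutation p = 0.8, two-sided, adjusted p = 0.8). With 3 arrays against 3 no such p can fall below 0.1, so neither test could pass 0.05, and nothing is concluded from them. The SD between spots of an array was, for Slc28a2 on the log2 scale, 0.19 ± 0.03 over the 0 h arrays and 0.10 ± 0.03 over the 2 h arrays (SD, n = 3 each). For Hprt1 it was 0.25 ± 0.06 and 0.18 ± 0.05. These come from the same spot signals that chose the genes and are given without a test.

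Both probes were dim against their surroundings. The signal of Slc28a2 was 0.63 to 0.79 times the local background at 0 h and 0.65, 1.55 and 1.14 times on 2 h replicates 1, 2 and 3. That of Hprt1 was 0.44 to 0.51 times the local background at 0 h and 0.44, 0.71 and 0.65 times at 2 h. Folds of such dim probes depend on how the background is treated. With the background added back, the log2 difference was 0.36 for Slc28a2 and 0.10 for Hprt1, and with normexp correction of the median spot signal it was 0.20 and 0.16. The direction was the same in both.

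**Figure D3:**
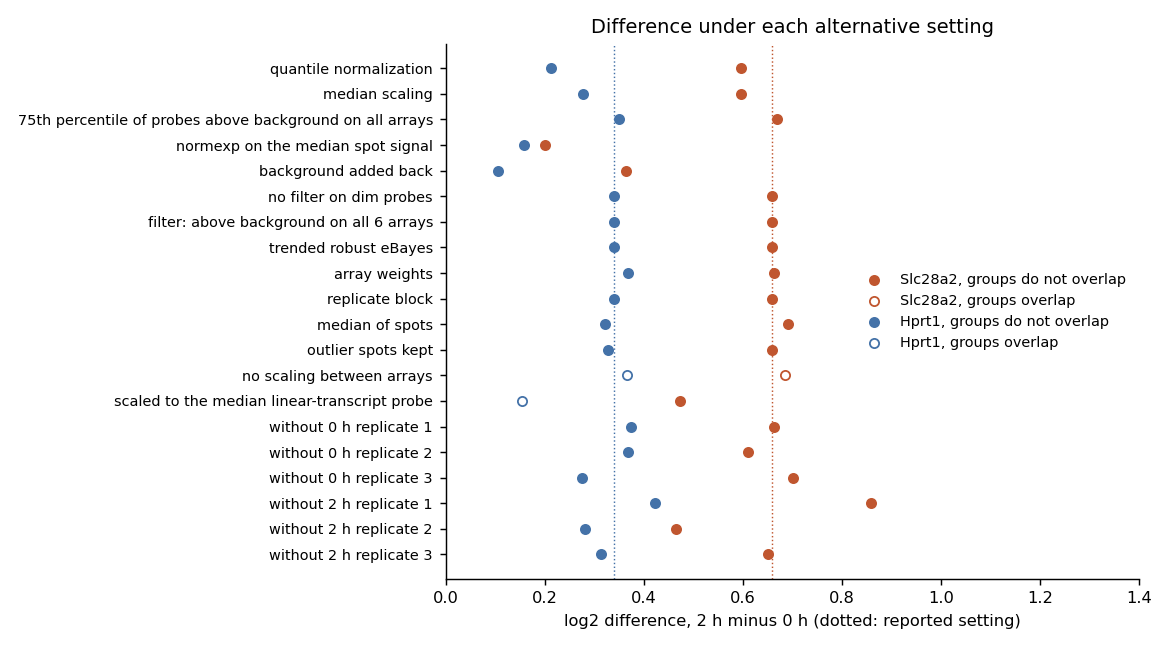
The log2 difference, 2 h minus 0 h, of Slc28a2 and Hprt1 under each alternative treatment of the arrays and without each array in turn; filled points have groups that do not overlap, open points have groups that overlap, and dotted lines mark the reported values of 0.66 and 0.34. All points lie above 0, between 0.20 and 0.86 for Slc28a2 and between 0.10 and 0.42 for Hprt1, lowest with normexp correction for Slc28a2 and with the background added back for Hprt1.

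The position of the arrays went with the groups. By the scanner coordinates, read from a single scan, the 0 h arrays formed one row of arrays and the 2 h arrays the other, so the row and the group cannot be told apart. Array columns 2 and 3 each held both groups. There the scaled log2 level of Slc28a2 was higher at 2 h by 1.03 (2 h replicate 2 against 0 h replicate 1) and 0.77 (2 h replicate 3 against 0 h replicate 2). For Hprt1 the same pairs differed by 0.39 and 0.33. These columns leave out 2 h replicate 1, the lowest 2 h array for both genes. They also leave out 0 h replicate 3, the highest 0 h array for Slc28a2 and the lowest for Hprt1. The pairs therefore do not stand for the whole groups, whose differences were 0.66 for Slc28a2 and 0.34 for Hprt1. Array 2 h replicate 2, the highest for both genes, was also the brightest array, with 88.3% of its non-control probes well above background against 76.3% to 83.2% on the others. Its part in the result was not tested. Without it the log2 difference was 0.46 for Slc28a2 and 0.28 for Hprt1, and without 2 h replicate 1 it was 0.86 and 0.42.

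The genes were set against each other within each array, where any scaling cancels. The log2 ratio of Slc28a2 to Hprt1 signal was 0.52, 0.42 and 0.79 on 0 h replicates 1, 2 and 3 and 0.66, 1.16 and 0.86 on 2 h replicates 1, 2 and 3. Its mean was 0.58 ± 0.19 over the 0 h arrays and 0.89 ± 0.25 over the 2 h arrays (SD, n = 3 each). The groups overlapped, since 2 h replicate 1 lay below 0 h replicate 3, so that an unequal change of the transporter and the salvage enzyme was not separated from the spread between arrays.

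Among the 41 linear-transcript probes tested, 23 had a higher mean scaled level at 2 h than at 0 h. Of the 41 that were well above background on at least 3 arrays, in 10 every 2 h array was above every 0 h array (24.4%), and in 4 every 2 h array was below (9.76%). Both genes belong to the 10, which is how they came to be described, so nothing is read from this. Among 11635 circRNA probes 11.5% were higher and 7.87% were lower without overlap. Of the linear-transcript probes 0% passed the threshold of 0.05 after Benjamini-Hochberg adjustment over the 41 in limma (smallest adjusted p 0.0746). At an unadjusted p under 0.05 in limma there were 10 higher and 1 lower (24.4% and 2.44%) over all 41. Slc28a2 and Hprt1 are among these 41 and were chosen by the same values. The shares therefore describe the set of probes and are no test of either gene. The median log2 difference of the 41 was 0.03. Without scaling between arrays 7.32% of the 41 were higher without overlap, and scaled to the median linear-transcript probe 14.6% were.

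In the order of the difference Slc28a2 stood at place 6 and Hprt1 at place 11 of 41. Next above Slc28a2 was Pdcd10, which encodes an adaptor protein mutated in cerebral cavernous malformation, with a log2 difference of 0.74 ± 0.19 (SE, n = 3 per group). Next below was Nlrp3, the sensor of an inflammasome, with 0.55 ± 0.17, though only 1 of the 0 h arrays and 2 of the 2 h arrays had it above background. The differences of these neighbours from Slc28a2 were smaller than 1 SE of any of them. Hprt1 stood between 2 probes without a gene symbol, ENSRNOT00000075517 (0.37 ± 0.29) and XM_235305 (0.34 ± 0.21), whose groups overlapped.

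**Figure D4:**
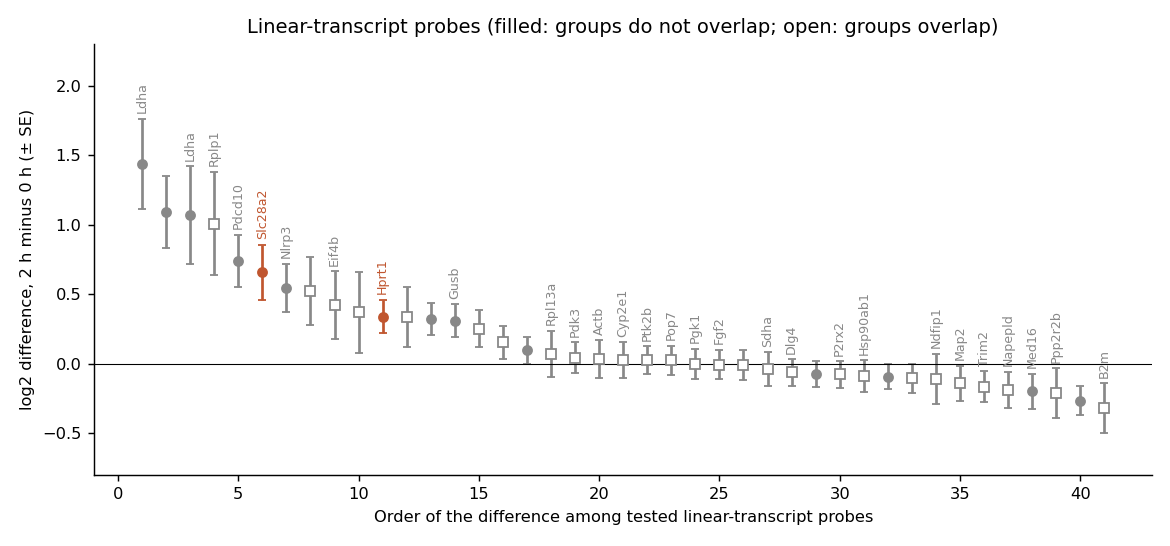
The log2 difference, 2 h minus 0 h, ± SE (n = 3 per group) of the 41 tested linear-transcript probes in descending order, with Slc28a2 and Hprt1 in colour and gene symbols where there is one. Filled points mark probes whose groups do not overlap and open squares those that overlap; Slc28a2 (0.66) is at place 6 and Hprt1 (0.34) at place 11.

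The purine pathway beyond these genes could hardly be followed on this array. Of 7 transporters of nucleosides and nucleobases on the list used, Slc28a2 alone had a probe, and of 9 salvage genes Hprt1 alone. The 11 genes of purine synthesis, among them Ppat and Impdh2, the 9 of purine breakdown, among them Xdh, the gene of xanthine oxidoreductase, and the 4 adenosine receptor genes had 0 probes with a matched symbol. Here 39 of the 62 linear-transcript probes matched a symbol and 23 did not. Defining markers of red cells, platelets, leukocytes, cardiomyocytes and endothelium likewise had 0 matched probes, so the cells that shed these RNAs were not traced. Of the hepatocyte list only Cyp2e1, a liver cytochrome P450, was measured, at a log2 difference of 0.03 ± 0.13 (SE), and of the neuron list only Map2, at -0.14 ± 0.13.

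As Hprt1 is a common reference gene, it was set beside the other reference transcripts. The list had 11 tested probes of 10 genes, with a median log2 difference of 0.07, against 0.03 for all 41. Of these, 4 probes were higher at 2 h without overlap and 0 lower, where 24.4% and 9.76% of the 41 were, and the 4 include Hprt1, which was chosen for it. Of the listed probes other than Hprt1, 0 passed after Benjamini-Hochberg adjustment in limma. The 4 were Hprt1, both Ldha probes for the A subunit of lactate dehydrogenase (1.44 ± 0.32 and 1.07 ± 0.35), and Gusb, the lysosomal beta-glucuronidase (0.31 ± 0.12). The groups overlapped for the other 7 probes. They were Rplp1 of the ribosomal stalk (1.01 ± 0.37, with only 1 of the 0 h arrays but all 3 of the 2 h arrays above background), Rpl13a of the large ribosomal subunit (0.07 ± 0.17), Actb, cytoplasmic actin (0.03 ± 0.14), and Pgk1, a glycolytic enzyme (0.00 ± 0.11). The remaining ones were Sdha of mitochondrial complex II (-0.04 ± 0.12), the chaperone Hsp90ab1 (-0.09 ± 0.11) and B2m, which encodes beta-2 microglobulin (-0.32 ± 0.18). The list held only probes with a matched symbol. Of the unmatched probes in the Hprt1 probe's series, CUST_7_PI421900130 was lower at 2 h without overlap (-0.07 ± 0.09). The groups of CUST_3_PI421900130 overlapped (-0.01 ± 0.11).

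Profiles over the 6 arrays were compared by the root mean square distance between log2 values, each probe centred on its own mean. Hprt1 aside, the nearest named profiles to Slc28a2 among 40 other probes were those of Nlrp3 at a distance of 0.14, Pdcd10 at 0.19 and Gusb at 0.27, within a range of 0.10 to 0.56 over all 40. A flat profile would lie at 0.40. Slc28a2 deviated from its own mean by -0.32, -0.42 and -0.24 on the 0 h arrays and by -0.07, 0.71 and 0.34 on the 2 h arrays. Nlrp3 deviated by -0.12, -0.28 and -0.42, then by -0.01, 0.59 and 0.25, and Pdcd10 by -0.29, -0.24 and -0.58, then by -0.01, 0.58 and 0.54. All 3 had 2 h replicate 2 highest and 2 h replicate 1 lowest of the 2 h arrays.

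Among named probes Hprt1 was nearest to Gusb at 0.11, Nlrp3 at 0.15 and Actb at 0.16, where a flat profile would lie at 0.20. The distance between Hprt1 and Slc28a2 was 0.24, which put Hprt1 at place 5 of 40 as seen from Slc28a2, and Slc28a2 at place 23 of 40 as seen from Hprt1. Hprt1 deviated from its mean by -0.10, -0.11 and -0.30 on the 0 h arrays and by 0.00, 0.29 and 0.22 on the 2 h arrays. Gusb deviated by 0.02, -0.28 and -0.20, then by 0.10, 0.26 and 0.11. The order of 2 h arrays in both Slc28a2 and Hprt1, with replicate 2 above 3 and 3 above 1, was that of 41.5% of the linear-transcript probes and 29.8% of the circRNA probes, all after scaling.

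**Figure D5:**
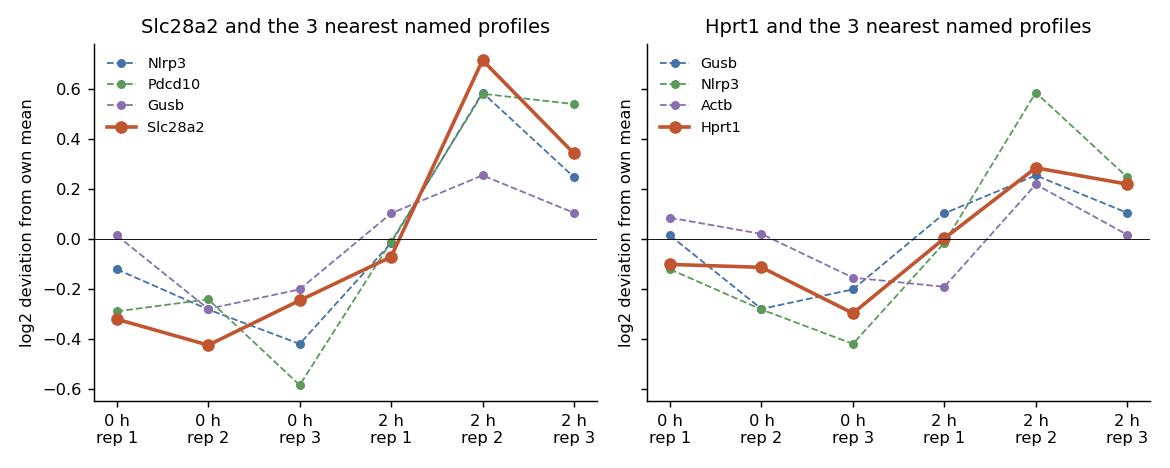
Deviation of scaled log2 signal from each probe's own mean over the 6 arrays, for Slc28a2 (left) and Hprt1 (right) with the 3 named linear-transcript probes of smallest distance. Solid lines are the described genes and dashed lines the others; Slc28a2 runs from -0.42 to 0.71 and Hprt1 from -0.30 to 0.29, both highest on 2 h replicate 2.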

How the data were processed

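Plasma RNA of 6 rats was hybridised to 1-colour arrays, 1 per sample, in 3 per group. Spot intensity, on a linear scale, was taken from the deposited scanner files, made with Agilent Feature Extraction 11.0.1.1 per the file headers, whose processed signal has the background subtracted. The submitters' processing notes name limma, without a version, and what it was used for is not given in the sources. A deposited value table of circRNA probes holds neither gene and was not used.

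Control spots and outlier-flagged spots were left out, the mean log2 processed signal of a probe's spots was taken, and each array's 75th percentile over non-control probes was subtracted. A probe was tested if at least 50% of its spots were well above background on at least 3 arrays and it had a value on all 6. One fit in limma 3.58.1 (lmFit, eBayes; R 4.3.3) compared the groups over circRNA and linear-transcript probes, two-sided, with Benjamini-Hochberg adjustment over each kind at 0.05. The fit was tested on simulated data with independent noise for each probe and array, which held no shift of a whole array. No p is given for Slc28a2 or Hprt1. Between 76.3% and 88.3% of probes per array were well above background, and the number of arrays limits the precision.

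Symbols came from transcript accessions through a RefSeq gene table of assembly GRCr8, whose coordinates are not printed because the array headers name another build. That table lists 3 Hprt1 pseudogenes. The probe sequences were not used here, so whether the Hprt1 probe also detects their transcripts was not tested. The genes and lists were chosen with earlier results of these data known. Besides both genes, named were the 3 nearest profiles with a symbol, neighbours in the order of the difference, and tested list members. In the labels, same-numbered samples share only a number. Scaling to linear-transcript probes and no scaling were added after the data had been seen.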

Additional observations from a re-analysis of the deposited data

How the results depend on the processing

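Over the 14 other treatments the log2 difference was 0.20 to 0.69 for Slc28a2 and 0.10 to 0.37 for Hprt1, and without an array it was 0.46 to 0.86 and 0.28 to 0.42, higher at 2 h throughout. It moved by more than the SD between arrays in 2 of 20 settings for Slc28a2 (normexp 0.20, background added back 0.36). For Hprt1 it did so in 3 of 20 (normexp 0.16, background added back 0.10, scaled to the median linear-transcript probe 0.15). Changes of the probe filter, trended robust eBayes and a replicate block cannot alter the difference, so they lend it no support. The count of linear-transcript probes past the adjusted test in limma, 0 of 41, became 2 with quantile normalization, 3 with median scaling, 1 with normexp, 6 with the background added back and 3 of 37 with the filter for all 6 arrays. It became 3 with trended robust eBayes, 11 with array weights, whose estimation stopped before its tolerance, and 3 scaled to the median linear-transcript probe. It was 0 to 8 without an array, with 8 without 2 h replicate 1 and 1 without 2 h replicate 2. With a replicate block the count was 0. The differences stayed at 0.66 and 0.34, as they must where each number occurs once in each group. The deviations of arrays that share a number had correlations of -0.115, 0.0194 and -0.0676. With so few arrays per group these values cannot decide whether the numbers pair the samples. The local background difference at Hprt1 spots, 0.23 units, lay between -0.10 and 0.80 without an array, turning to -0.005 without 2 h replicate 1 and to -0.10 without 2 h replicate 2. Where a value moved, the cause was not tested. Low signal over background limits both genes.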

Other observations

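One further probe bears on purines, chosen after its values were seen. P2rx2, a channel opened by extracellular ATP, read 20.9 units at 0 h and 20.1 at 2 h, above background on 3 of 3 arrays of each group, with a scaled log2 difference of -0.08 ± 0.10 (SE, n = 3 per group) and overlapping groups. It varied little between arrays of a group, with a pooled SD of 0.06 on the log2 scale.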
